A study of Mus musculus with 12 samples.

Results

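The p53 target genes are the transcripts of the tumour suppressor p53 (Trp53), of its direct regulators and of genes reported as transcribed by p53. A given list named 36 of them, and all 36 were found by gene symbol among the 22878 symbols of the deposited tables, each taken as its longest transcript model. The study sequenced polyadenylated RNA of mouse embryonic stem (ES) cells lacking histone H4 lysine 20 methyltransferases, and of cells differentiated from them. SUV420H1 and SUV420H2 turn the monomethylated lysine into its dimethylated and trimethylated forms, and the trimethylated form marks constitutive heterochromatin. The groups were SUV420H1_H2 DKO cells, labelled as lacking both enzymes, SUV420H2 KO cells, and WT cells. Undifferentiated ES cells gave 2 libraries per genotype, and days 8 and 12 of differentiation gave 1 each, 12 in all. ES cells had been passaged on gelatin in 1.5 µM of a GSK3 inhibitor until feeder cells were gone. The labels give neither the way cells were differentiated, nor the number of clones behind a genotype, nor whether the 2 ES libraries came from separate cultures, so p-values measure the spread between these libraries, which may be technical. In bulk RNA a gene's level in fewer cells and in less RNA per cell cannot be told apart.

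p53 is a transcription factor that is made and destroyed continuously. Mdm2, a ubiquitin ligase, marks it for breakdown and Mdm4 blocks its activity, and after DNA damage or other stress kinases release it from both. p53 then switches on genes that stop the cell cycle, start apoptosis, repair DNA or change metabolism, and Mdm2 itself, which closes a negative feedback loop. Mouse ES cells make abundant p53 and divide fast, with a short G1 phase.

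Libraries held 22542052 to 26677968 reads in genes, and 32 of the 36 members had at least 100 reads in every library. Suv420h2 stood at 5.59 and 3.37 RPKM (reads per length of transcript and depth of library) in DKO ES cells and 4.41 and 3.95 RPKM in KO ES cells, against 28.6 and 25.8 RPKM in WT ES cells. Suv420h1 rose in DKO ES cells, with 5.30 and 5.77 RPKM against 3.78 and 4.18 RPKM in WT ES cells (log2 fold change 0.49, SE 0.13, edgeR adjusted p = 0.0057). Which exons were deleted is not given, and reads outside them check nothing, so the label is unchecked for Suv420h1. All 8 ES markers looked at were at 1 RPKM or more in every library, and at most 1 of 8 fibroblast markers, Thy1, was so in any ES library.

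Promoters were searched for the p53 site, the 20-base sequence that a p53 tetramer binds, because p53 acts on its direct targets by binding there or at such sites elsewhere in the gene. It is a pair of adjoining decamers, each with purines, then a core of C, A or T, A or T and G, then pyrimidines. It reads alike on both strands, so 1 search covered both. Both 4-base cores had to match, and at most 3 of the other bases could differ. The windows, from RefSeq on GRCm38.p6, run from 250 bases before to 50 bases after each gene's start, and 28 of the 36 members had at least 1. A site was found for 6 of these 28 (21.4%), Cdkn1a, Gtse1, Ckap2, Bbc3, Aen and Trp53, against 0.673% of all 27025 genes with a window. Since the members were listed as p53 targets, an excess was likely in advance and is no result of these libraries. No match says only that these letters are not in this window. The whole windows of Cdkn1a and Bbc3 are shown because these members rose in both mutants, with the site in capitals. Cdkn1a has 2 windows and Bbc3 has 3, for different annotated starts, and a site was found in 1 of each. The Cdkn1a window with the site lies at chr17:29090729-29091028 on the + strand, and its site, with 1 mismatch, begins 51 bases before that start. The Bbc3 window with the site lies at chr7:16309333-16309632 on the + strand, and its site, with 3 mismatches, begins 97 bases before that start.
Cdkn1a: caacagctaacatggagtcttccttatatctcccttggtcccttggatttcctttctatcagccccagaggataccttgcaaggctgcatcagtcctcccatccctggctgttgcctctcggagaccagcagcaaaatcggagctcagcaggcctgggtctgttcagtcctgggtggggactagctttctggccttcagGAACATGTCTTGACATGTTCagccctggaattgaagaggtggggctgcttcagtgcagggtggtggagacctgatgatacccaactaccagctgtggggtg
Bbc3: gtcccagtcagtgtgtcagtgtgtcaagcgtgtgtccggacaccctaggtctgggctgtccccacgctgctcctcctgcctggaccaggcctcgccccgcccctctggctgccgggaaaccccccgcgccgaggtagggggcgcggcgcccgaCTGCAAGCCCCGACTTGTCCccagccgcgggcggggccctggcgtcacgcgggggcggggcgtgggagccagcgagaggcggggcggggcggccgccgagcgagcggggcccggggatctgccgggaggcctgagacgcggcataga
The other 4 members are shown by the site alone, on the strand of the gene, with all of it in capitals. That of Gtse1 has 1 mismatch, that of Ckap2 has 2, and those of Aen and Trp53 have 3 each.
Gtse1: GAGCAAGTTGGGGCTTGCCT
Ckap2: AGACATGTCCTGACTTGTCA
Aen: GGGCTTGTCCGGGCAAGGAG
Trp53: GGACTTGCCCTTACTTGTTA

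In DKO and in KO ES cells most p53 target genes were higher than in WT, while Trp53 itself was not. In DKO ES cells 27 members rose and 1, Trp53, fell, of 35 tested (edgeR quasi-likelihood test, Benjamini-Hochberg adjusted p under 0.05). That is 77.1% higher and 2.86% lower, against 32.2% higher and 31.6% lower among all 12046 genes tested. In KO ES cells 22 members rose and 0 fell, or 62.9%, against 23.5% higher and 19.2% lower among all genes. With no member lower by that test in KO, 25 of the 35 had an unadjusted p under 0.05, where 49.8% of all genes did, and DESeq2 also called 22 higher and 0 lower. The median log2 fold change of the members was 0.94 in DKO and 0.57 in KO, beside -0.01 over all genes in each. The 2 comparisons share their WT libraries and so are not independent. They also share an estimate of each gene's spread, taken over all genotypes. Both DKO libraries lay above both WT ones in RPKM for 29 tested members and below them for 2, where 40% and 41.9% of all genes did so. For KO libraries the numbers were 30 and 4, where 35.6% and 41.5% of all genes did so. Fas was the 1 member too low to test in ES cells. With all 12 libraries in 1 fit, KO gave 13 higher and 0 lower of 36, or 36.1%, where 15% of all genes changed in either direction.

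**Figure D1:**
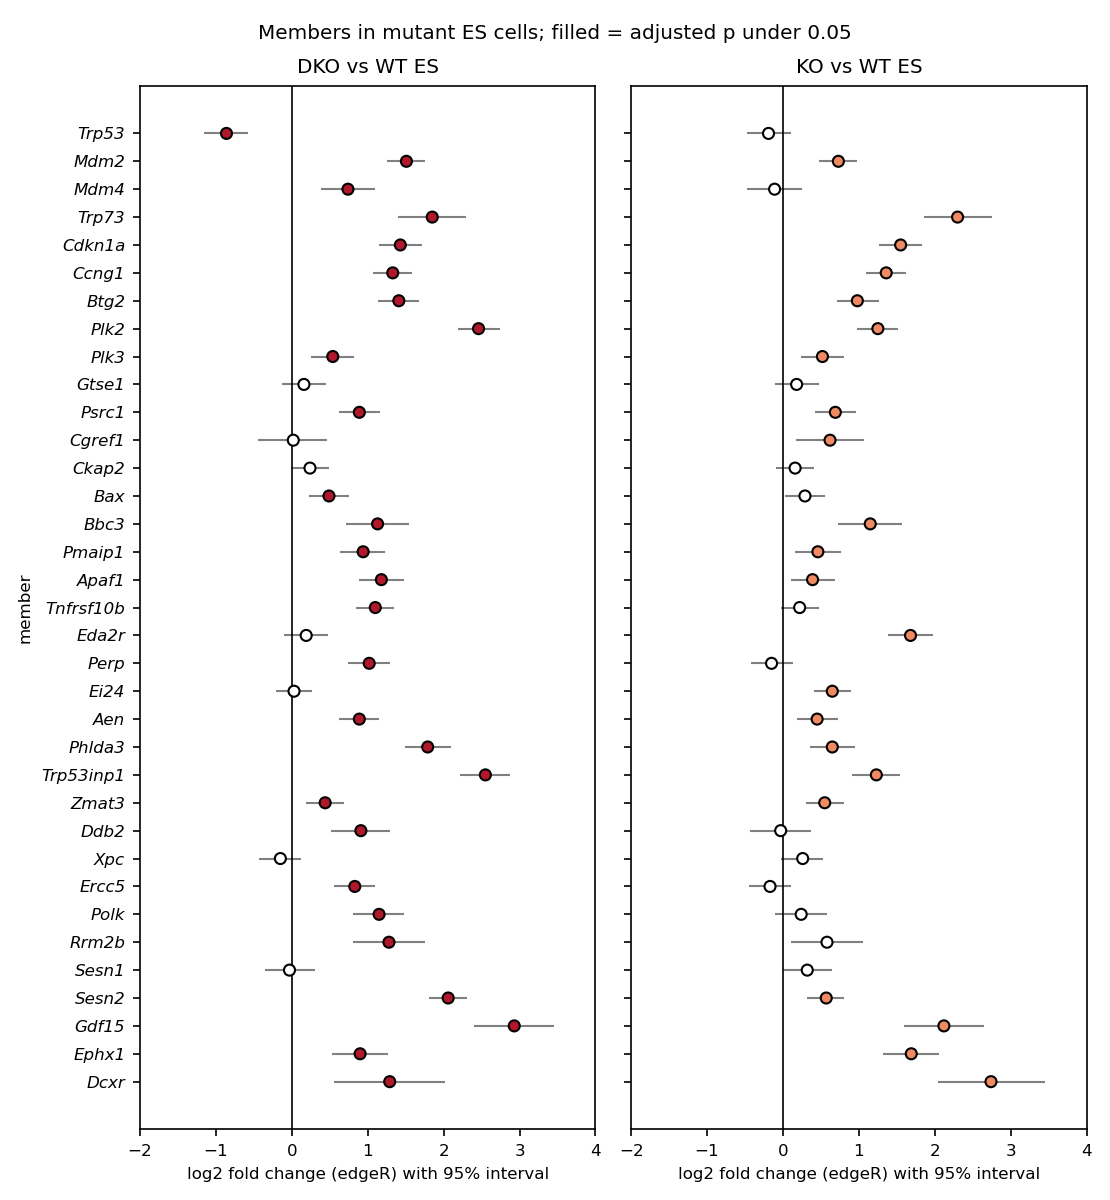
Log2 fold change of each tested member in ES cells, with its 95% interval, for DKO against WT and for KO against WT; filled points have an adjusted p under 0.05. Most points lie right of 0 in both panels, and Trp53 is the 1 filled point left of 0, in DKO.

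Trp53 RNA was lower in DKO ES cells and its antagonist Mdm2 higher. Trp53 stood at 58.1 and 42.8 RPKM in DKO, at 74.1 and 82.8 RPKM in KO, and at 88.0 and 95.8 RPKM in WT. Both DKO libraries lay below all others, a log2 fold change of -0.86 against WT (SE 0.13, edgeR adjusted p = 0.00012), whereas KO against WT was -0.19 with a 95% interval of -0.48 to 0.10 (adjusted p = 0.29). Trp53 lies on chromosome 11, whose genes had a median of -0.40 in DKO against WT, and a processed pseudogene (Trp53-ps) may share its reads. Mdm2, the ubiquitin ligase, stood at 55.3 and 57.6 RPKM in DKO and 33.6 and 30.6 RPKM in KO, against 20.2 and 19.8 RPKM in WT. The 3 genotypes did not overlap, and the log2 fold changes were 1.51 in DKO (SE 0.11, adjusted p = 3.4e-07) and 0.73 in KO (SE 0.11, adjusted p = 0.00024). Mdm4, which blocks p53 without degrading it, stood at 23.2 and 25.1 RPKM in DKO and 15.8 and 10.3 RPKM in KO, against 14.8 and 14.4 RPKM in WT. It rose in DKO (0.74, adjusted p = 0.002), and KO libraries lay on both sides of WT. Trp73, the p53 paralogue p73, was low but rose in both mutants, with 1.24 and 1.28 RPKM in DKO and 1.75 and 1.63 RPKM in KO, against 0.310 and 0.391 RPKM in WT.

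Of the 9 members that act on the cell cycle, 6 rose in DKO and 7 in KO, where 32.2% and 23.5% of all genes rose. Cdkn1a, the inhibitor p21 of cyclin-dependent kinases, stood at 48.9 and 42.6 RPKM in DKO and 43.8 and 52.8 RPKM in KO, against 18.01 and 16.04 RPKM in WT. Both mutants lay well above WT and overlapped each other, 1.43 above it in DKO on the log2 scale (SE 0.13, edgeR adjusted p = 1.5e-06) and 1.55 in KO (SE 0.13, adjusted p = 2.7e-06). Cyclin G1 (Ccng1), which recruits a phosphatase to Mdm2, behaved alike in size, with 49.97 and 56.03 RPKM in DKO and 55.1 and 51.5 RPKM in KO, against 20.8 and 21.8 RPKM in WT (1.33 and 1.36, SE 0.12 each). Plk2, a polo-like kinase of centriole duplication, differed by genotype: it stood at 17.5 RPKM in each DKO library and at 7.19 and 7.58 RPKM in KO, against 3.20 RPKM in each WT library. Its log2 fold changes were 2.46 in DKO (SE 0.13, adjusted p = 2.1e-08) and 1.25 in KO (SE 0.13, adjusted p = 1e-05). The antiproliferative factor Btg2 stood at 19.4 and 17.3 RPKM in DKO and 13.8 and 12.9 RPKM in KO, against 6.38 and 7.55 RPKM in WT. The groups were in the order DKO, KO, WT without overlap (1.41 and 0.98, SE 0.13 each).

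The remaining cell cycle members moved less. Psrc1, a spindle protein, rose by 0.89 in DKO and 0.69 in KO on the log2 scale. Plk3, a stress-responsive polo-like kinase, rose by 0.54 and 0.52, 2 calls that ended without WT ES replicate 1 (edgeR adjusted p = 0.071 and 0.12). Cgref1, a secreted growth regulator, rose in KO (0.62, adjusted p = 0.03), a call lost without either WT or either KO ES library (adjusted p up to 0.16), and was at 0.02 in DKO. Gtse1, which binds p53 and carries it out of the nucleus, did not pass in either mutant, with log2 fold changes of 0.16 in DKO (95% interval -0.13 to 0.45) and 0.18 in KO (-0.11 to 0.47). Ckap2, a spindle protein, did not pass either, with 0.24 (-0.01 to 0.49) and 0.16 (-0.09 to 0.41). These 2 hold a p53 site with fewer mismatches than those of Bbc3 and Aen.

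**Figure D2:**
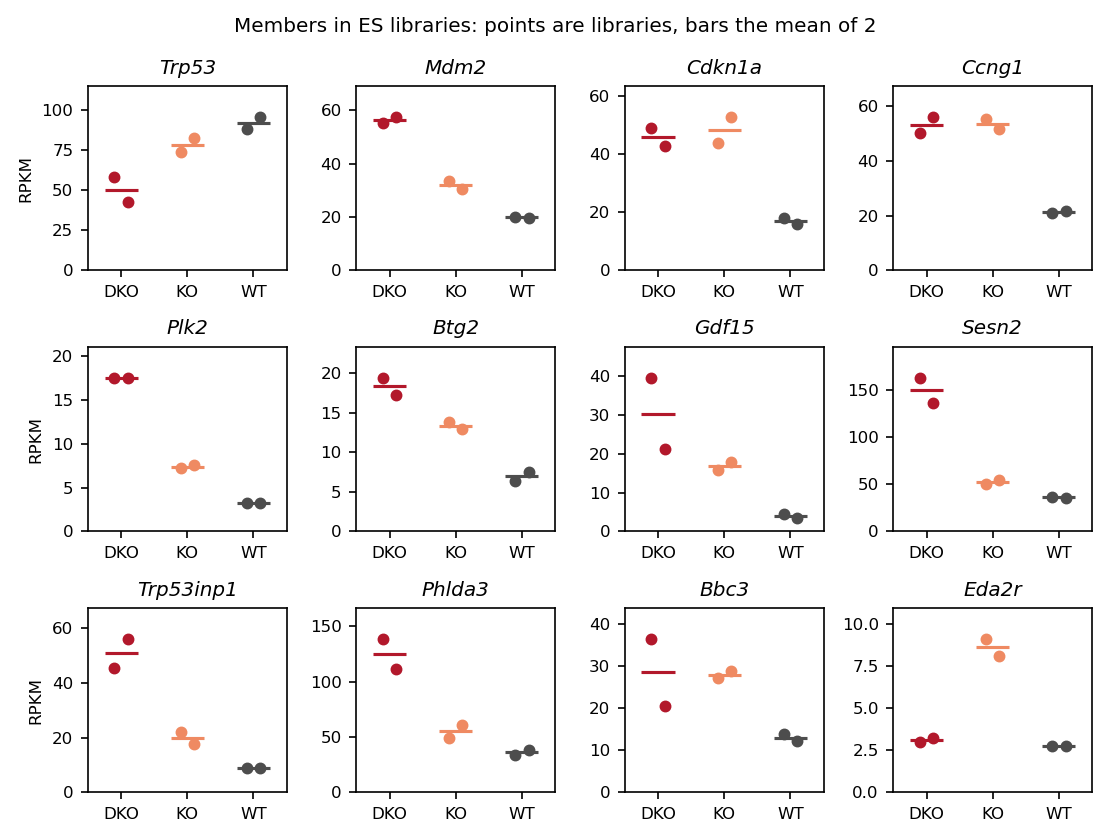
RPKM of 12 members in the 6 ES libraries; points are libraries and bars the mean of 2. Cdkn1a and Ccng1 are at a like height in DKO and KO, Mdm2, Plk2, Sesn2, Trp53inp1 and Phlda3 are highest in DKO, and Eda2r is highest in KO.

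Of the 12 apoptosis members tested, 10 rose in DKO and 9 in KO, where 32.2% and 23.5% of all genes rose. Bbc3 (PUMA), a BH3-only protein that neutralises Bcl2, stood at 36.4 and 20.6 RPKM in DKO and 27.0 and 28.8 RPKM in KO, against 13.9 and 12.1 RPKM in WT. The DKO libraries lay on both sides of the KO ones. Log2 fold changes were 1.13 in DKO (SE 0.19, edgeR adjusted p = 0.00026) and 1.15 in KO (SE 0.19, adjusted p = 0.00048). The fit shares a spread among genotypes, so these SEs are alike although the DKO libraries lay further apart. Pmaip1 (NOXA), another BH3-only protein, rose by 0.94 in DKO and 0.46 in KO on the log2 scale. Bax, the pore-forming effector, rose in DKO (0.49, adjusted p = 0.0038) and was at 0.29 in KO (95% interval 0.03 to 0.56, adjusted p = 0.074). Apaf1, the scaffold of the apoptosome, stood at 6.14 and 6.11 RPKM in DKO and 3.82 and 3.13 RPKM in KO, against 2.89 and 2.56 RPKM in WT, and rose by 1.18 and 0.39. The KO calls of Pmaip1 and Apaf1 were the less firm: both were lost without either WT ES library or KO ES replicate 1, that of Pmaip1 also without KO ES replicate 2, with adjusted p up to 0.17 and 0.30. Without WT ES replicate 1 Bax in DKO had an adjusted p of 0.070.

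Among the receptors of this role, Eda2r, a receptor of ectodysplasin A2, was the member that set KO apart. It stood at 3.03 and 3.22 RPKM in DKO and 9.15 and 8.13 RPKM in KO, against 2.77 RPKM in each WT library, and DKO and WT differed by 0.19 (95% interval -0.10 to 0.48, edgeR adjusted p = 0.24). Its log2 fold change was 1.68 in KO against WT (SE 0.13, adjusted p = 1.6e-06) and -1.50 in DKO against KO (SE 0.13, adjusted p = 9.3e-07). Eda2r lies on the X chromosome, whose genes had a median of 0.92 in KO against WT, and the part of that in its value was not tested. Tnfrsf10b, the TRAIL receptor, went the other way, with 17.3 and 17.6 RPKM in DKO and 9.44 and 9.15 RPKM in KO, against 8.28 and 8.11 RPKM in WT. It rose in DKO (1.1, SE 0.12, adjusted p = 5.1e-06) and was at 0.22 in KO (95% interval -0.03 to 0.47). Tnfrsf10b lies on chromosome 14, whose genes had a median of -0.53 in KO against WT and 0.60 in DKO against KO. The part of that in its values was not tested. Fas, the receptor of Fas ligand, had 0.07 RPKM or less in every ES library.

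Of the other apoptosis members, Phlda3, Trp53inp1, Perp and Aen were highest in DKO and Ei24 in KO. Phlda3, which competes with Akt for membrane lipids, stood at 139 and 111 RPKM in DKO and 49.3 and 60.7 RPKM in KO, against 33.9 and 38.3 RPKM in WT, and rose by 1.79 and 0.65 on the log2 scale. Trp53inp1, a p53 cofactor and stress protein, stood at 45.5 and 56.2 RPKM in DKO and 22.2 and 17.9 RPKM in KO, against 8.85 and 8.76 RPKM in WT. It rose by 2.55 in DKO (SE 0.15, edgeR adjusted p = 5.7e-08) and by 1.23 in KO (SE 0.15, adjusted p = 3.7e-05), and the 3 genotypes did not overlap. Perp, a tetraspan membrane protein, stood at 22.8 and 24.7 RPKM in DKO and 10.1 and 10.7 RPKM in KO, against 11.6 and 12.0 RPKM in WT. It rose in DKO (1.02, adjusted p = 2e-05), and was at -0.15 in KO (95% interval -0.42 to 0.13). Aen, a nuclease, rose by 0.89 and 0.45, and Zmat3, an RNA-binding protein whose DKO and KO libraries overlapped, by 0.44 and 0.55. Ei24, a membrane protein of the endoplasmic reticulum, rose in KO (0.65, adjusted p = 0.00052) and was at 0.03 in DKO. Without WT ES replicate 1 Zmat3 in DKO had an adjusted p of 0.088, and without either WT library or KO ES replicate 2 the KO call of Aen was lost (adjusted p up to 0.095).

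Of the 5 DNA repair members 4 rose in DKO and 0 in KO, by edgeR, DESeq2 and limma alike. By edgeR 32.2% of all genes rose in DKO and 23.5% in KO, and a set of 5 is small. In KO edgeR gave 1 member, Rrm2b, an unadjusted p under 0.05 (0.58, adjusted p = 0.051). Ddb2, which recognises ultraviolet lesions, stood at 5.48 and 4.22 RPKM in DKO and 2.44 and 2.48 RPKM in KO, against 2.63 and 2.54 RPKM in WT. Ercc5 (XPG), the nuclease that cuts beside such lesions, stood at 10.8 and 12.0 RPKM in DKO and 5.86 and 5.32 RPKM in KO, against 6.54 and 6.43 RPKM in WT. Ercc5 lies on chromosome 1, whose genes had a median of -0.57 in KO against WT and 0.72 in DKO against KO. The part of that in its values was not tested. Polk, a polymerase that copies past lesions, stood at 4.31 and 3.74 RPKM in DKO and 2.25 and 1.95 RPKM in KO, against 1.93 and 1.72 RPKM in WT. In all 3 both DKO libraries exceeded every other, with log2 fold changes in DKO against WT of 0.91, 0.83 and 1.15, and in DKO against KO of 0.94 (SE 0.18, adjusted p = 0.00055), 1.0 (SE 0.13, adjusted p = 2.2e-05) and 0.90 (SE 0.15, adjusted p = 0.00022). Rrm2b, the ribonucleotide reductase subunit used outside S phase, rose by 1.28 in DKO at 1.32 and 1.69 RPKM, against 0.616 and 0.633 RPKM in WT. Xpc, which finds distorted DNA, did not pass in either mutant against WT, with -0.15 in DKO and 0.26 in KO, and was lower in DKO than in KO (-0.41, adjusted p = 0.013, and 0.057 without KO ES replicate 2).

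Of the 5 members of metabolism, stress and secreted signals, 4 rose in each mutant, where 32.2% of all genes rose in DKO and 23.5% in KO. Gdf15, a secreted stress cytokine, had the largest DKO fold change of all members. It stood at 39.7 and 21.2 RPKM in DKO and 15.8 and 17.9 RPKM in KO, against 4.45 and 3.53 RPKM in WT, so that it rose by 2.93 in DKO (SE 0.24, edgeR adjusted p = 8.3e-07) and by 2.12 in KO (SE 0.24, adjusted p = 2.5e-05) on the log2 scale. Both mutants lay above WT without overlap, and the 2 DKO libraries differed from each other more than those of KO or WT. Sesn2, a sestrin that restrains mTORC1, had the highest level of all members in DKO at 162.5 and 136 RPKM, with 49.8 and 53.9 RPKM in KO, against 36.3 and 35.8 RPKM in WT. It rose by 2.06 in DKO (SE 0.12, adjusted p = 3.5e-08) and by 0.57 in KO. Its relative Sesn1 was at -0.03 in DKO (95% interval -0.35 to 0.30) and 0.32 in KO (0.00 to 0.64) and did not pass. The detoxifying hydrolase Ephx1 stood at 6.46 and 4.73 RPKM in DKO and 9.47 and 9.41 RPKM in KO, against 2.95 and 3.05 RPKM in WT. Dcxr, a xylulose reductase, stood at 2.91 and 1.62 RPKM in DKO and 5.71 and 6.32 RPKM in KO, against 1.14 and 0.709 RPKM in WT. These 2 enzymes were higher in KO than in DKO, with fold changes against WT of 0.90 and 1.69 for Ephx1 and 1.29 and 2.74 for Dcxr, in DKO and in KO.

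**Figure D3:**
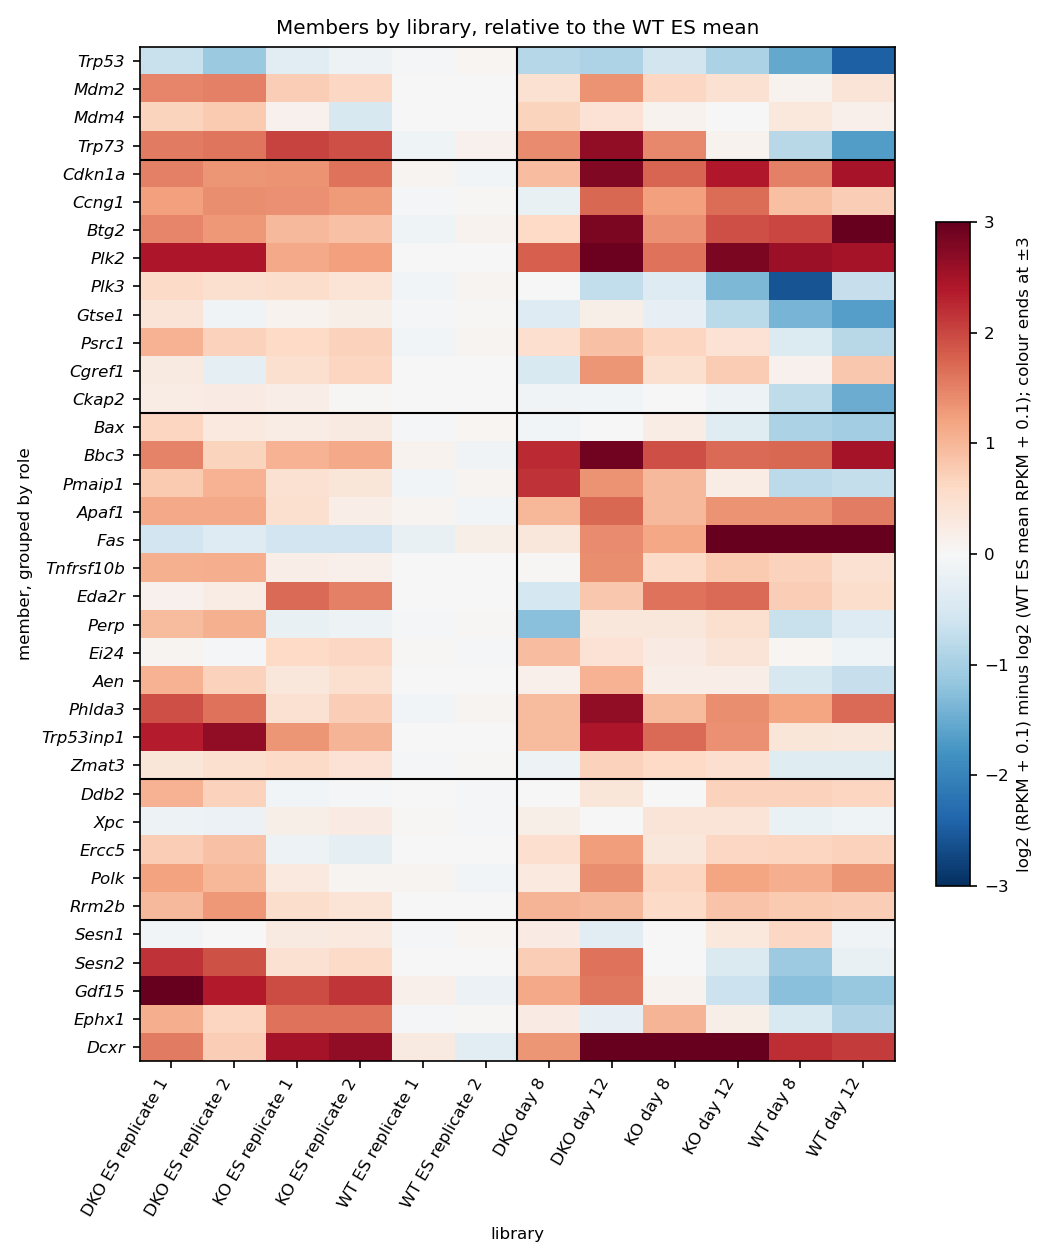
Level of each member in the 12 libraries relative to its WT ES mean on a log2 scale, grouped by role. The DKO and KO ES columns are mostly above the WT ES level, and the row of Trp53 is at or below it in every mutant and differentiated library.

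DKO and KO ES cells were also compared directly. In DKO 17 of 35 members were higher and 8 lower than in KO (edgeR), 71.4% in all, against 67.3% of all genes, which is near the background. The split was 48.6% higher and 22.9% lower, against 33.2% and 34% among all genes, with a member median of 0.20 and a median over all genes of -0.02. After subtracting each chromosome's median the member median was 0.13, and here the median over genes was 0.72 on chromosome 1, -0.56 on 11, 0.60 on 14 and -0.93 on X. The higher ones were led by Sesn2 (1.49, SE 0.11, adjusted p = 2.6e-07), Trp53inp1 (1.32), Plk2 (1.21), Perp (1.17) and Phlda3 (1.14). The lower ones were Eda2r (-1.50), Dcxr (-1.46), Ephx1 (-0.79), Trp53 (-0.68), Ei24 (-0.62), Cgref1 (-0.60), Xpc (-0.41) and, in the 6-library edgeR fit but in only 1 of 15 alternatives, Trp73 (-0.45, adjusted p = 0.046). Cdkn1a was at -0.11, with adjusted p = 0.45, and Ccng1 at -0.04, with adjusted p = 0.79, so neither passed. Without KO ES replicate 1 the calls of Aen and Gdf15 were lost, and without KO ES replicate 2 those of Btg2, Pmaip1, Rrm2b, Cgref1 (also without DKO ES replicate 2) and Xpc, with adjusted p from 0.057 to 0.17. The call of Trp73 was lost without any 1 of the 6 ES libraries and by DESeq2, limma and other scaling.

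Genes around p53 did not move in 1 direction. Of 18 activators and cofactors of p53, 2 rose and 7 fell in DKO and 1 rose and 4 fell in KO (edgeR). Among all 12046 genes tested 32.2% rose and 31.6% fell in DKO, and 23.5% rose and 19.2% fell in KO. The products of the activator Cdkn2a include Arf, an inhibitor of Mdm2. Cdkn2a was at 1.35 and 1.73 RPKM in DKO and 16.2 and 17.9 RPKM in KO, against 5.99 and 5.29 RPKM in WT. It fell in DKO (-1.85, edgeR adjusted p = 9.3e-06) and rose in KO (1.64, adjusted p = 2e-05), with reads not split by product. The checkpoint kinase Chek2 fell by 1.23 on the log2 scale in DKO and was at -0.16 in KO, and the deubiquitinase Usp7 fell by 0.70 in DKO. Rpl5, a ribosomal protein that binds Mdm2, fell by 1.03 in KO and was at 0.12 in DKO. Of 11 inhibitors and ligases of p53, 7 rose and 3 fell in DKO and 3 rose and 2 fell in KO. The deacetylase Sirt1 rose by 1.26 in DKO and fell by 0.45 in KO, the ligase Arih2 rose by 0.67 and 1.36, Trim24 by 0.76 in DKO, and the ligase Pja1 fell by 0.70 in DKO and rose by 0.53 in KO.

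Targets outside the member list were mixed. Of 28 other reported p53 targets tested, 13 rose and 11 fell in DKO and 11 rose and 3 fell in KO (edgeR), with medians of 0.23 and 0.25. Among all genes 32.2% rose and 31.6% fell in DKO, and 23.5% and 19.2% in KO. The mTORC1 inhibitor Ddit4 stood at 499 and 387 RPKM in DKO and 71.5 and 94.7 RPKM in KO, against 32.9 and 37.4 RPKM in WT (3.66 and 1.28). The growth arrest gene Gadd45a stood at 83.7 and 74.6 RPKM in DKO and 17.97 and 17.92 RPKM in KO, against 17.9 and 19.8 RPKM in WT. It rose in DKO (2.08, adjusted p = 4e-08) and was at -0.03 in KO. Abhd4 rose by 1.72 in DKO, and the iron reductase Steap3 fell by 2.39 in DKO and rose by 0.62 in KO. Of 24 cell cycle genes that p53 represses through p21 and the DREAM complex, 7 rose and 7 fell in DKO and 5 rose and 3 fell in KO, with medians of -0.10 and -0.03. These counts are near or under the shares among all genes. Foxm1 rose by 0.86 in DKO and 0.56 in KO, Mybl2 by 0.85 and 0.43, and Prc1 by 0.96 in DKO, while Aurkb fell by 1.11 in DKO.

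Targets of ATF4, the factor of the integrated stress response, rose beside the members in DKO. Some genes of both pathways, Sesn2, Gdf15 and Ddit4 among them, are known to respond to either factor. Of 11 tested ATF4 response genes 10 rose and 0 fell in DKO, with a median of 1.99, and 5 rose and 0 fell in KO, with a median of 0.11 (edgeR). Their summed level was 1056 and 906.3 RPKM in DKO and 444.8 and 406.1 RPKM in KO, against 376.8 and 343.7 RPKM in WT. For these counts and those of the ES markers below, 32.2% of all genes rose and 31.6% fell in DKO, and 23.5% and 19.2% in KO. Atf3, a stress-induced transcription factor, stood at 50.8 and 46.3 RPKM in DKO and 3.75 and 3.20 RPKM in KO, against 2.65 and 2.35 RPKM in WT (4.29 and 0.52). Nupr1 rose by 3.59 in DKO and 1.07 in KO, Atf5 by 3.39 and 0.89, and Chac1 by 2.55 in DKO, with 0.11 in KO. Of the 8 ES markers 1 rose and 6 fell in DKO and 3 rose and 3 fell in KO, among them Nanog at -1.06 in DKO and 1.46 in KO, Dppa5a at -1.32 and 0.90, and Zfp42 at -3.05 and -3.31. Their summed level was 1980 and 1666 RPKM in DKO and 2662 and 2808 RPKM in KO, against 3230 and 3168 RPKM in WT. The part of the stress response and of the ES markers in the members' levels was not tested.

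Chromosome-wide shifts touched some members. The 5 members on chromosome 1, Mdm4, Btg2, Phlda3, Ercc5 and Ephx1, lie where the median over genes was -0.57 in KO against WT, and Tnfrsf10b lies on chromosome 14, where it was -0.53. Trp53, Ccng1 and Dcxr lie on chromosome 11, at -0.40 in DKO. After subtracting each chromosome's median, the members' median was 0.91 in DKO and 0.60 in KO, beside 0.94 and 0.57 without it. Reads of overlapping genes are a further limit: Bax overlaps Gm45808 and Ephx1 a pseudogene on the same strand, and Cdkn1a, Ddb2, Ei24, Plk3, Rrm2b and Trp73 overlap a gene on the opposite strand, and whether counting used strand is not stated in the sources read.

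During differentiation of WT cells Trp53 fell, and of the p53-induced genes some rose and others fell. Of 36 members 11 rose and 11 fell at days 8 and 12 against ES cells (edgeR), 30.6% each, against 31.2% higher and 29.8% lower among all 13433 genes tested, which is the background rate. Trp53 stood at 88.0 and 95.8 RPKM in WT ES cells, 31.7 RPKM at day 8 and 16.6 RPKM at day 12, a log2 fold change of -2.12 (SE 0.19, adjusted p = 6.6e-05). Plk2 stood at 3.20 RPKM in each ES library, 19.4 RPKM at day 8 and 18.4 RPKM at day 12 (2.48, adjusted p = 0.00013). Btg2 stood at 6.38 and 7.55 RPKM in ES cells, 28.1 RPKM at day 8 and 59.3 RPKM at day 12 (2.42, adjusted p = 0.00031). All 3 had both differentiated libraries on 1 side of both ES libraries. Cdkn1a stood at 18.01 and 16.04 RPKM in ES cells, 48.6 RPKM at day 8 and 94.9 RPKM at day 12 (1.87, adjusted p = 0.00032). Bbc3 stood at 13.9 and 12.1 RPKM in ES cells, 43.1 RPKM at day 8 and 73.7 RPKM at day 12 (2.01, adjusted p = 0.00071). The cell division members Gtse1 and Ckap2 fell by 1.66 and 1.25. Bax (-1.12, edgeR adjusted p = 0.00092) and Psrc1 (-0.76, adjusted p = 0.0048) fell as well. Calls of 8 members, Aen, Ephx1, Ercc5, Gdf15, Pmaip1, Rrm2b, Sesn2 and Trp73, were lost on leaving out single libraries, mostly WT ES or WT day 8 ones, with adjusted p up to 0.38. Of these 8, Ercc5 and Rrm2b had risen and the others, Gdf15 (-1.36) among them, had fallen.

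In the mutants the counts were lower, for members and for all genes. In DKO 2 members rose and 5 fell, against 10.4% higher and 9.22% lower among all genes, and in KO 4 rose and 4 fell, against 15.8% and 13.5% (edgeR). As shares of the 36 members these are 5.56% and 13.9% in DKO and 11.1% each in KO, which is near the background. In DKO Trp53 stood at 58.1 and 42.8 RPKM in ES cells, 51.0 RPKM at day 8 and 48.5 RPKM at day 12, a log2 fold change of -0.09 (SE 0.18, adjusted p = 0.75). In KO Trp53 stood at 74.1 and 82.8 RPKM in ES cells, 62.7 RPKM at day 8 and 47.5 RPKM at day 12 (-0.69, adjusted p = 0.024, and up to 0.14 without any 1 of its 4 libraries). In KO Gdf15 stood at 15.8 and 17.9 RPKM in ES cells, 4.29 RPKM at day 8 and 2.5 RPKM at day 12 (-2.48, adjusted p = 0.003). Both genes were lower on both days than in either KO ES library. Ephx1 stood at 9.47 and 9.41 RPKM in KO ES cells, 6.19 RPKM at day 8 and 3.38 RPKM at day 12, a fall of 1.20 on the log2 scale. Gtse1 stood at 55.5 and 58.8 RPKM, 43.9 RPKM and 29.8 RPKM, and fell by 0.81, while Plk2, at 7.19 and 7.58 RPKM, 10.1 RPKM and 23.3 RPKM, rose by 0.91. Calls of Plk2 and Gtse1 were lost without either KO ES library or KO day 12, and that of Gtse1 also without either WT ES library (adjusted p up to 0.19 and 0.23). The KO calls of Apaf1, Ephx1, Ercc5 and Fas were lost without KO ES replicate 2, among others (adjusted p up to 0.19).

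Of the 7 DKO calls, Gdf15 stood at 39.7 and 21.2 RPKM in ES cells, 8.91 RPKM at day 8 and 12.2 RPKM at day 12 (-1.60, edgeR adjusted p = 0.017). Perp stood at 22.8 and 24.7 RPKM, 4.86 RPKM and 15.0 RPKM (-1.50, adjusted p = 0.012), and Bbc3 at 36.4 and 20.6 RPKM, 61.6 RPKM and 97.5 RPKM (1.37, adjusted p = 0.017). Among members that passed, Bbc3 rose by most in DKO, with both days above both ES libraries. Ephx1 fell by 0.98, at 6.46 and 4.73 RPKM, 3.58 RPKM and 2.49 RPKM, and Bax fell by 0.60, at 101.0 and 79.2 RPKM, 60.3 RPKM and 64.8 RPKM. Ddb2 fell by 0.80 and Ei24 rose by 0.59. Each of these 7 calls was lost without at least 1 DKO library (adjusted p up to 0.32 for Ei24, 0.23 for Bax and 0.18 or less for the others), those of Bax, Ddb2 and Ei24 also without any 1 of the WT and KO ES libraries, and that of Ephx1 without either WT ES library or KO ES replicate 1. Fas, at 0 reads in both KO ES libraries, had 15 reads at KO day 8 and 96 at day 12. The mean of the 2 days, most of it from day 12, was at least 17.1-fold higher when 3 counts per library stand for 0.

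Of the 8 ES markers 6 rose and 0 fell in differentiated DKO cells against WT (edgeR), where 2.19% of all genes changed in either direction. In KO against WT 0 passed, as did 0% of all genes, while 7 had an unadjusted p under 0.05 and 7 passed by DESeq2, and their median log2 fold change was 3.08. The markers' summed level was 2674 RPKM at day 8 and 1322 RPKM at day 12 in DKO, 1859 and 860.3 RPKM in KO, and 271.3 and 113.8 RPKM in WT. The 10 markers of differentiated cells summed to 32.8 and 167.4 RPKM in DKO and 99.3 and 583 RPKM in KO, against 3587 and 227.3 RPKM in WT at days 8 and 12. Genotype and the course of differentiation cannot be told apart in these libraries, and the part of that course in each member's value was not tested.

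**Figure D4:**
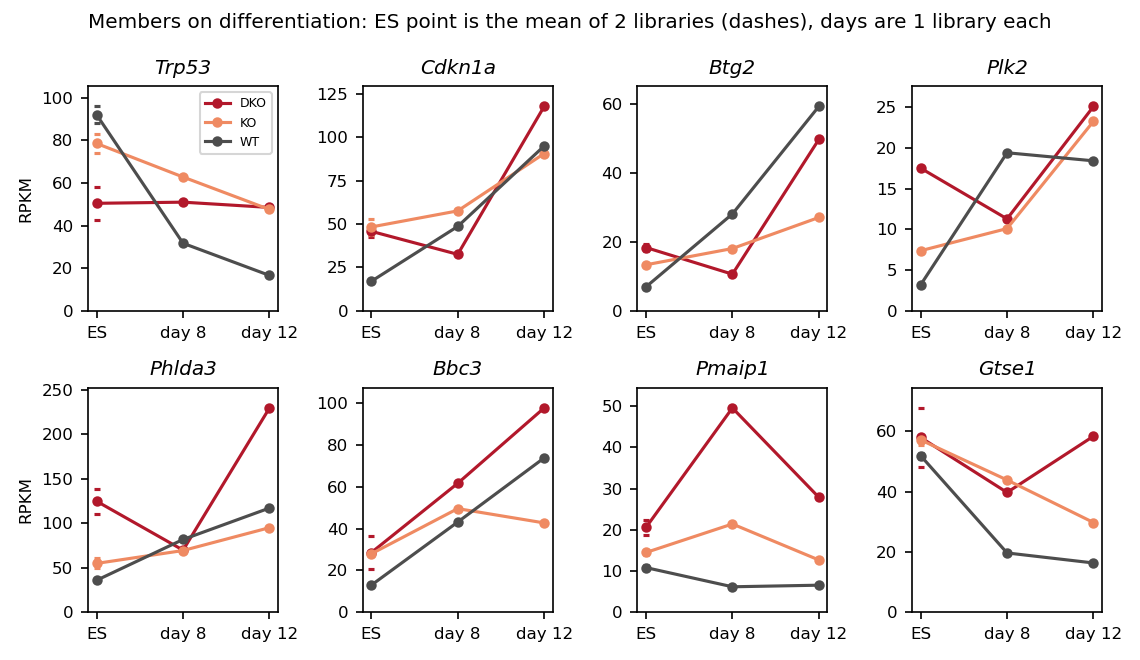
RPKM of 8 members in ES cells, at day 8 and at day 12, by genotype; the ES point is the mean of 2 libraries, shown as dashes, and each day is 1 library. The WT line of Trp53 falls to 16.6 RPKM at day 12 while those of DKO and KO end at 48.5 and 47.5 RPKM, and Cdkn1a and Btg2 start lower in WT ES cells than in the mutants.

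The change on differentiation differed between genotypes for 13 members in DKO against WT and 5 in KO against WT, by the test of the difference itself (edgeR interaction). In DKO 6 members had the more positive change and 7 the more negative one, against 21.1% and 20.9% among all genes, and in KO 2 and 3, against 9.09% and 7.24%. As shares of the 36 members these are 16.7% and 19.4% in DKO and 5.56% and 8.33% in KO, near or under the background. Trp53 differed by 2.03 in DKO (SE 0.26, adjusted p = 0.00077) and 1.43 in KO (SE 0.26, adjusted p = 0.011, and up to 0.059 without WT ES replicate 2 or KO ES replicate 1). Among the negative values were those of Plk2 at -2.61 in DKO and -1.57 in KO, Btg2 at -2.12 and -1.82, and Cdkn1a at -1.49 and -1.43. The mutants' higher ES levels are themselves a term of these differences. Days 8 and 12 served as the replicates of a differentiated group, with 1 day effect for all genotypes. In DKO, Cdkn1a, Btg2 and Plk2 lay below both ES libraries at day 8 and above them at day 12. Their mean change thus describes neither day. Bbc3 and Dcxr, which also rose in WT and stood higher in mutant ES cells, did not pass, with -0.64 and -1.43 for Bbc3 and -1.16 and -1.74 for Dcxr. In KO the values of Plk2, Btg2, Cdkn1a and Ckap2 no longer passed without any 1 of the 2 WT and 2 KO ES libraries (adjusted p up to 0.12).

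**Figure D5:**
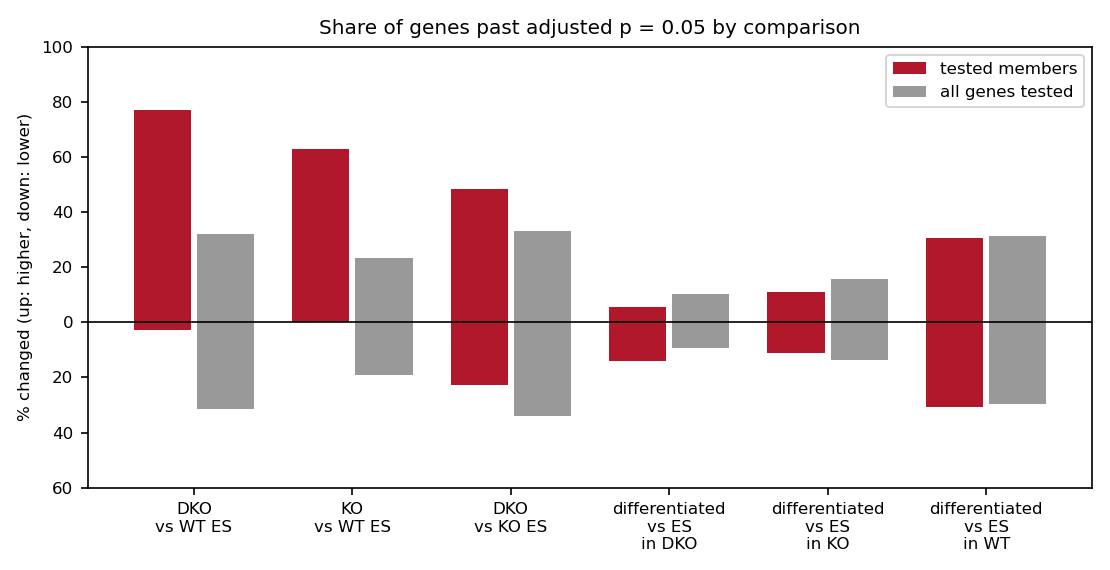
Share of tested members and of all genes tested that were higher (up) or lower (down) at adjusted p under 0.05, for 3 ES comparisons and for differentiation in each genotype. Members exceed all genes in the higher direction in DKO and in KO against WT ES cells, and are near all genes in WT differentiation.

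Between differentiated cells of different genotype no member passed. DKO against WT gave 0 of 36 by edgeR, with 2.19% of all genes, and 14 members had an unadjusted p under 0.05, where 30.8% of all genes did. KO against WT gave 0, with 0% of all genes, and 12 unadjusted, where 23.3% did, and DKO against KO gave 0, with 0.00775% of all genes, and 5 unadjusted, where 16.8% did. DESeq2 called 11 higher and 1 lower in DKO against WT, 33.3% of members beside 24.3% of all genes. It called 7 higher and 0 lower in KO against WT, 19.4% beside 14.2%, and 3 higher and 1 lower in DKO against KO, 11.1% beside 9.12%. With all 12 libraries in 1 fit edgeR called 15 higher and 1 lower in DKO against WT, 44.4% beside 37.9% of all genes. That fit gave 14 higher and 0 lower in KO against WT, 38.9% beside 27.5%, and 3 higher and 1 lower in DKO against KO, 11.1% beside 16.6%. Without the WT day 12 library edgeR called 5 members in DKO against WT, or 13.9%, beside 14.2% of all genes, which is the background. Trp53 stood at 51.0 and 48.5 RPKM in DKO and 62.7 and 47.5 RPKM in KO, against 31.7 and 16.6 RPKM in WT, at days 8 and 12. Both mutants were higher on each day, with log2 fold changes of 1.20 (adjusted p = 0.061) and 1.25 (adjusted p = 0.099). Gdf15 stood at 8.91 and 12.2 RPKM in DKO and 4.29 and 2.5 RPKM in KO, against 1.60 and 1.76 RPKM in WT (2.72, adjusted p = 0.058, and 1.01). Pmaip1 stood at 49.5 and 27.9 RPKM in DKO and 21.4 and 12.7 RPKM in KO, against 6.21 and 6.60 RPKM in WT (2.60, adjusted p = 0.052, and 1.33). Cdkn1a stood at 32.5 and 117.6 RPKM in DKO and 57.5 and 90.5 RPKM in KO, against 48.6 and 94.9 RPKM in WT, so its groups overlapped.

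The 2 differentiated DKO libraries differed from each other across many members. At day 12, 14 of 36 members (38.9%) were at least 2-fold higher than at day 8 in DKO and 0 were lower, against 14% and 5.16% of all genes, on the RPKM scale with 0.1 added. In KO 2 were higher and 1 lower, against 12.7% and 3.28%, and in WT 2 and 0, against 7.12% and 9.37%. With 1 library per day in a genotype these values have no replicate check. In DKO Cdkn1a stood at 32.5 RPKM at day 8 and 117.6 RPKM at day 12, Btg2 at 10.6 and 49.7 RPKM, and Ccng1 at 18.3 and 70.7 RPKM. At day 8 all 3 lay below the DKO ES libraries and at day 12 above them. Phlda3 stood at 69.9 and 229.6 RPKM, Trp53inp1 at 17.1 and 47.5 RPKM, and Perp at 4.86 and 15.0 RPKM. Trp53 itself, at 51.0 and 48.5 RPKM, was alike on both days. Over the 3 genotypes together the comparison of day 12 with day 8 gave 0 members and 0% of all genes by edgeR, 4 members with an unadjusted p under 0.05, where 12.3% of all genes did, and 2 by DESeq2, or 5.56%, beside 4.45% of all genes.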

How the data were processed

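Polyadenylated RNA of 12 libraries was sequenced on an Illumina platform, per the labels' protocols. Alignment was by Bowtie2, version not named, to mm9, per the submitters' processing notes. Which program did the counting, and how it treated strand and reads with several matches, none of the sources used here gives. The authors deposited an exon length, integer read counts and RPKM for each of 29257 transcript models.

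Models of 1 gene share reads, and only the longest was used; 13 members have several models. Levels are the deposited RPKM. Fold changes are from the deposited counts by the quasi-likelihood test of edgeR 4.0.16, scaled by TMM (R 4.3.3), with limma 3.58.1 on RPKM and DESeq2 1.42.0 as alternatives. Over genes, their median difference from RPKM log2 ratios was between -0.16 and 0.09 by comparison, and single genes can differ by more. A gene entered a fit if 2 or more of its libraries reached 1 RPKM, and was called changed when its Benjamini-Hochberg adjusted p, over every gene in the fit, was under 0.05. The 6 ES libraries left 3 residual degrees of freedom, the 6 differentiated ones, with genotype and day, 2, and all 12, with a mean per genotype and state and with day, 5. The tests were tested on simulated data with known changes. Tables were read in Python 3.11.15 with pandas 2.3.3 and numpy 2.4.6, and plots drawn with matplotlib 3.10.9.

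The members, the other lists and the tests were chosen with earlier results of these data known. Values per library are given for Trp53, Cdkn1a and Mdm2 and, per comparison with WT ES cells, for the 10 members with the largest absolute log2 fold change among those that passed, reached 5 RPKM in a group and did not overlap, and for 5 such members per differentiation comparison. Values of other members, given to describe each role, were chosen after they were seen. Of other lists, up to 4 genes with the smallest adjusted p are named. The 95% intervals of fold changes rest on the spread between libraries, and the floor of 3 counts covers counting error only. Counts of the 2 ES libraries of a genotype differed by more than sampling noise. Chi-square over degrees of freedom was 36.1 in DKO, 14.9 in KO and 3.93 in WT. With a spread shared by the genotypes, SEs and p-values of DKO may be too small and those of KO against WT too large.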

Additional observations from a re-analysis of the deposited data

Results flagged for a closer look

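Members are given here because their change on differentiation, at days 8 and 12 against ES cells, differed between a mutant and WT by a test of the difference itself (edgeR interaction over 12 libraries, adjusted over all genes tested). Values are log2 changes in the mutant minus those in WT. Days 8 and 12 served as the replicates of a differentiated group. The difference between mutant and WT ES cells is a term of each value.

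In DKO minus WT, the positive differences were Trp73 at 2.76 (adjusted p = 0.04), Trp53 at 2.03 (0.00077), Pmaip1 at 1.63 (0.0095), Gtse1 at 1.34 (0.012), Ckap2 at 0.85 (0.014) and Ei24 at 0.75 (0.039). Of these, Trp53, Gtse1, Ckap2, Pmaip1 and Trp73 fell in WT cells and passed in neither direction in DKO. The negative differences were Plk2 at -2.61 (0.00098), Btg2 at -2.12 (0.0049), Cdkn1a at -1.49 (0.0084) and Polk at -1.46 (0.0044). Also negative were Ddb2 at -1.37 (0.012), Phlda3 at -1.33 (0.02) and Apaf1 at -1.20 (0.003). All members with a negative difference were higher in DKO than in WT ES cells, which lowers their values. Trp53 was lower there, at -0.86, which raises its value. The values of Ei24 and Trp73 were lost without any 1 of the 6 ES libraries. That of Ei24 was also lost without WT or DKO day 8, and that of Trp73 without WT day 12. Trp73 did not pass by limma with 1 or 0.1 added to RPKM either (adjusted p up to 0.26). It had 35 and 9 reads at WT days 8 and 12. The value of Phlda3 was lost without either WT ES library or DKO ES replicate 1, and that of Ddb2 without WT ES replicate 2.

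In KO minus WT, the positive differences were Trp53 at 1.43 (adjusted p = 0.011) and Ckap2 at 0.89 (0.028), and the negative ones Btg2 at -1.82 (0.024), Plk2 at -1.57 (0.022) and Cdkn1a at -1.43 (0.024). Both sets of differences use the same 4 WT libraries. The summed RPKM of the 8 ES markers at days 8 and 12 was 2674 and 1322 in DKO and 1859 and 860.3 in KO, against 271.3 and 113.8 in WT, and its part in these differences was not tested.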

How the results depend on the processing

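Single members gave 157 results to check. They were those that passed, and Trp53, Cdkn1a and Mdm2 in DKO and in KO against WT ES cells. Members with an unadjusted edgeR p under 0.05 between differentiated cells were added, 14 in DKO and 12 in KO against WT, though 0 of these had passed. None of the 157 turned in direction under the alternatives of scaling, filter, tool, pseudocount, transcript model, libraries and block. Of them 79 kept their side of the threshold under all alternatives. The counts of members called in ES cells held within 1.5 times under scaling, filter, tool, pseudocount, transcript model and the replicate block, and ranged on leaving out single libraries from 25 to 28 in DKO against WT (28), 17 to 24 in KO against WT (22) and 19 to 26 in DKO against KO (25). With all 12 libraries in 1 fit KO against WT gave 13. The replicate block gave 28, 22 and 24 members. Deviations of same-numbered libraries correlated at -0.06 (DKO and KO), -0.06 (DKO and WT) and -0.03 (KO and WT), so no shared deviation was seen. These values cannot tell whether same-numbered libraries were prepared together.

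Between differentiated cells the calls depended on the tool. DKO against WT gave 0 members, 12 by DESeq2, 16 with all 12 libraries, 1 with no filter, 2 and 4 by limma with 1 and 0.1 added to RPKM, and 0 to 5 without single libraries. KO against WT gave 0, 7 by DESeq2 and 14 with 12 libraries, and DKO against KO 0, with 4 and 4; day 12 against day 8 gave 2 by DESeq2. Leaving out single libraries gave 0 in each of these 3. Differentiated against ES cells gave 7 members in DKO (4 with no filter, 11 by DESeq2, 1 to 13 without single libraries), 8 in KO (14 by DESeq2, 5 by limma with 1 added, 1 to 14) and 22 in WT (15 to 26). The interactions gave 13 in DKO (9 to 21) and 5 in KO (0 to 9). The causes were not tested. Subtracting chromosome medians moved the member median of DKO against KO differentiated cells to 0.05, against 0.18, and that of the DKO interaction to -0.33, against -0.45. Subtracting them also changed the sign of some members: 32 against 30 were positive in KO against WT ES cells, 28 against 24 in KO against WT differentiated cells and 20 against 23 in DKO against KO differentiated cells. Groups hold 2 libraries, with 1 per day, and Fas and Trp73 rest on few reads.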
